A study of Mus musculus with 2 samples.

Results

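Foxp3 and 4 genes linked to regulatory T cells, Ikzf2, Lrrc32, Ebi3 and Izumo1r, were followed across the T cells of lungs carrying melanoma metastases. They are 5 named genes of the 55357 features in each count matrix, and they were chosen by name, with earlier results of these data known. CD45-positive, 7-AAD-negative leukocytes were sorted from metastasis-bearing lungs of C57 mice, and single-cell libraries were made. The labels name both the BD Rhapsody and the 10x Chromium capture systems, so the system behind these counts is uncertain. The metastases came from B16F10, an established mouse melanoma line, whose cells carried either wild-type IRF7 (WT) or IRF7 with the change C435A, and IRF7 is a transcription factor of the type I interferon response. There was 1 library per tumour genotype, called here the C435A library and the WT library after the tumour cells, and values are given in that order. The genotype belongs to the tumour cells, so the immune cells of both groups are those of C57 mice. The sources used here state neither their age and sex nor how many were pooled. The labels call the cell type melanoma although the sort was for CD45, and the genes below are described in cells gated by T cell transcripts.

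Regulatory T cells are CD4 T cells that restrain other immune cells, and Foxp3 is the transcription factor that defines them. Ikzf2 encodes Helios, an Ikaros family zinc finger protein found in many regulatory T cells and also in some activated, exhausted or innate-like T cells. Lrrc32 encodes GARP, which holds latent TGF-beta on the cell surface. Ebi3 encodes a chain shared by the cytokines IL-27 and IL-35. Izumo1r encodes folate receptor 4, a surface protein of regulatory T cells and of follicular helper T cells. In tumours, regulatory T cells are known for dampening responses of other T cells.

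A unique molecular identifier (UMI) marks 1 captured RNA molecule. The kept cells numbered 9427 and 9199, with medians of 3200.0 and 2684 UMIs, and 24 barcodes occurred in both libraries. T cells had at least 2 UMIs summed over Trac, Cd3e, Cd3d and Cd3g, and there were 3819 and 3718 of them. CD4 cells had a Cd4 UMI and none of Cd8a or Cd8b1, and they numbered 830 and 731 with medians of 3528.5 and 2593 UMIs. CD8 cells, defined the other way round, numbered 2255 and 2005, and 610 and 906 T cells had no UMI of either lineage. Cells with a Mki67 UMI, Mki67 being a gene of dividing cells, made up 23.7% and 6.43% of CD4 cells and 35.5% and 3.49% of CD8 cells. They held 41.1% and 19.9% of the UMIs of the CD4 gate. Levels are given as UMI counts of the gene per 1000000 UMIs of a gate (CPM) with exact 95% Poisson intervals, and ratios with exact conditional 95% intervals. These intervals cover counting error only, treat each UMI as independent and leave out the spread between cells. With 1 library per group no difference between tumour genotypes can be tested.

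Foxp3 (ENSMUSG00000039521, GRCm38 chromosome X, 7573644 to 7595245, plus strand) was a transcript of a small set of CD4 cells in both libraries. The CD4 gate held 58 Foxp3 UMIs in 28 cells of the C435A library, a level of 15.6 CPM (95% interval 11.8 to 20.1). In the WT library it held 101 UMIs in 49 cells, or 41.9 CPM (34.1 to 50.9). The intervals of these levels did not overlap, and the WT library was 2.69-fold higher. A positive cell carried a median of 2 and 1 Foxp3 UMIs, and no cell carried more than 7 and 6. CD8 cells held 3 and 8 Foxp3 UMIs, or 0.214 and 1.13 CPM, so CD4 cells exceeded CD8 cells 72.8-fold and 36.9-fold. Of the members with at least 20 UMIs, 4 of 4 and 5 of 5 were at least 1.5-fold higher in CD4 than in CD8 cells and none was lower, where 13.4% and 13.1% of all genes tested were higher and 9.25% and 8.19% lower. B cells, which should lack the gene, had a Foxp3 UMI in 0.0907% and 0.0758% of 2204 and 2639 cells at median depths of 2111.5 and 1913 UMIs. The share of CD8 cells with a Foxp3 UMI, 0.133% and 0.349%, had intervals that overlapped those of B cells although CD8 cells were deeper, with medians of 4409 and 3141 UMIs. With every cell thinned to 1000 UMIs, 0 of 2234 CD8 cells, which allows a share of up to 0.134%, and 1 of 1997 had a Foxp3 UMI. Of the 3 and 7 Foxp3-positive CD8 cells, 1 and 5 also carried both Ikzf2 and Izumo1r. Taken singly, these 2 genes were found in 11.7% and 8.18% of all CD8 cells of the WT library. There 45 CD8 cells (2.24%) carried both without another member. Of the 5 WT cells, 4 carried just these 3 members and had a median of 5638.5 UMIs, deeper than the CD8 gate. Overlap of separate intervals does not compare the shares of CD8 and B cells directly, and their difference was not computed. In the WT library the Foxp3 levels of CD8 and B cells were 1.13 and 0.270 CPM. Most Foxp3-positive CD8 cells of the WT library carried other members too.

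Foxp3 was also found in T cells with no UMI of a lineage gene. Of the 60 and 101 T cells with a Foxp3 UMI, 28 and 49 lay in the CD4 gate and 22 and 36, or 36.7% and 35.6%, in the gate with neither Cd4 nor Cd8 UMIs. The median depth of that gate was 2404.5 and 2359 UMIs, below that of CD4 cells in both libraries. Its Foxp3 level was 21.2 and 26.6 CPM. Its log2 ratio over CD4 cells was 0.45 (-0.17 to 1.053), an interval that includes 0, in the C435A library and -0.65 (-1.11 to -0.20), so lower, in the WT library. A further 7 and 9 positive cells had UMIs of both lineages, and 3 and 7 were CD8 cells. Markers of other cell types differed between the same gates. Gamma delta T cell markers stood at 155 and 205 CPM with neither lineage, against 8.05 and 17.4 CPM in CD4 cells. Melanoma cell markers stood at 1545 and 2910 CPM against 235 and 654 CPM, and NK cell markers at 219 and 55.1 CPM against 14.8 and 16.2 CPM. Mature dendritic cell markers lay the other way, at 55.2 and 27.7 CPM against 86.4 and 137 CPM. Every gene of these 4 lists was detected in both gates of both libraries, and their part in these levels was not tested.

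Ikzf2 (ENSMUSG00000025997, chromosome 1, 69531214 to 69687245, minus strand) gave the most UMIs of the 5 genes. Like Izumo1r, it was spread over CD4 cells, CD8 cells and T cells with neither lineage. Its level in CD4 cells was 192 CPM (179 to 207) in the C435A library and 249 CPM (229 to 269) in the WT library. In CD8 cells it was 36.6 and 85.3 CPM, and in T cells with neither lineage 211 and 262 CPM. CD4 cells exceeded CD8 cells 5.26-fold and 2.92-fold. Outside the T cell gate, Ikzf2 stood at 19.3 and 49.8 CPM in NK cells, at 39.9 and 53.9 CPM in plasmacytoid dendritic cells, and at 0.926 and 1.75 CPM in B cells. T cells with neither lineage and CD4 cells did not differ beyond counting error in Ikzf2, with log2 ratios of 0.13 (-0.05 to 0.31) and 0.08 (-0.08 to 0.24).

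Izumo1r (ENSMUSG00000031933, chromosome 9, 14885814 to 14903949, minus strand) had its highest level per UMI in CD4 cells among the T cell lineage gates compared here. It stood at 108 CPM (97.4 to 119) and 194 CPM (177 to 212) in CD4 cells. T cells with neither lineage held 94.4 and 106 CPM, and CD8 cells 9.56 and 40.1 CPM. CD4 cells exceeded CD8 cells 11.3-fold and 4.83-fold. They did not differ from T cells with neither lineage beyond counting error in the C435A library, where the log2 ratio of the latter over the former was -0.19 (-0.45 to 0.07), and did in the WT library, at -0.87 (-1.09 to -0.66). B cells held 1.85 and 2.97 CPM. Of the 402 and 529 T cells with an Izumo1r UMI, 177 and 186 lay in the CD4 gate, 91 and 164 in the CD8 gate and 105 and 160 in the gate with neither lineage, so most Izumo1r-positive T cells lay outside the CD4 gate.

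Lrrc32 (ENSMUSG00000090958, chromosome 7, 98489283 to 98502181, plus strand) was scarce. CD4 cells held 10 UMIs in 7 cells and 18 UMIs in 14 cells, levels of 2.68 CPM (1.29 to 4.94) and 7.46 CPM (4.42 to 11.8). CD8 cells held 1 and 2 UMIs. CD4 cells exceeded CD8 cells on the log2 scale by 5.23 (2.42 to 10.67) and 4.72 (2.65 to 7.87), so Lrrc32, like Foxp3, was higher in CD4 cells.

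Ebi3 (ENSMUSG00000003206, chromosome 17, 55952640 to 55957022, plus strand) was the member whose highest levels lay outside T cells. Neutrophils held 73.9 and 75.5 CPM, mature dendritic cells 48.3 and 64.3 CPM, macrophages and monocytes 23.0 and 18.7 CPM, and B cells 10.9 and 10.8 CPM. CD4 cells held 8.32 CPM (5.65 to 11.8) and 5.80 CPM (3.17 to 9.74), and CD8 cells 0.785 and 1.42 CPM. The levels of CD4 cells and of B cells had overlapping intervals in both libraries. The genes of its partner chains gave next to no UMIs in CD4 cells. Of Il12a and Il27, which encode the chains that pair with Ebi3, Il12a gave no UMI and Il27 gave 1 UMI in each library, in cells without a Foxp3 UMI.

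**Figure D1:**
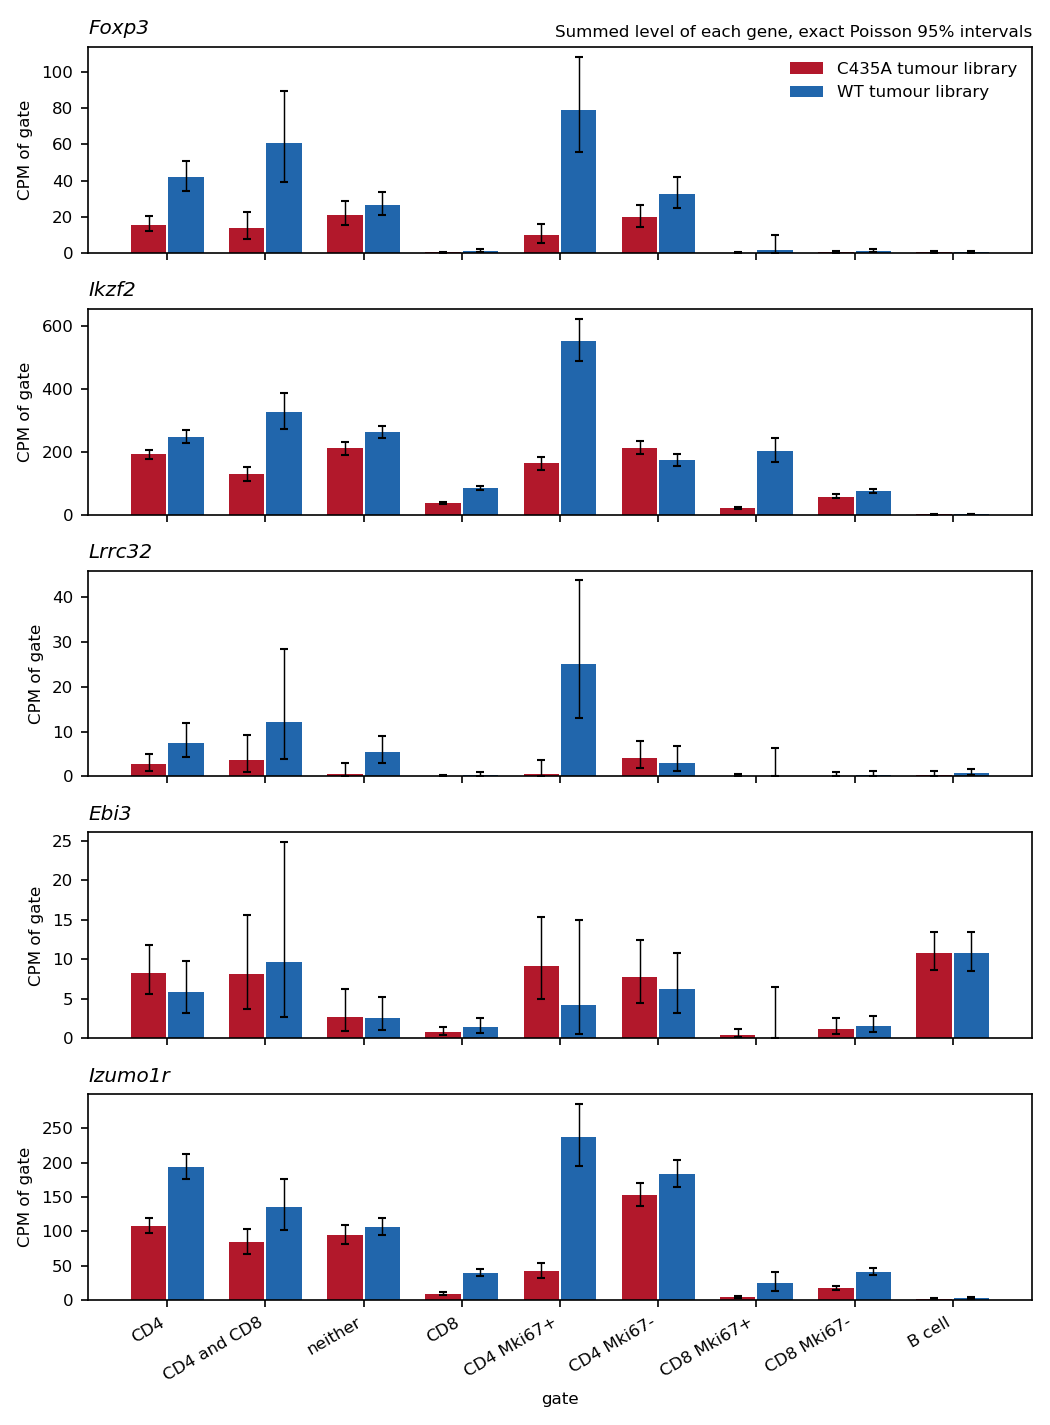
Level of each gene (vertical axis, CPM of the gate, linear from 0) in each gate, with red bars for the C435A library, blue bars for the WT library and error bars for exact Poisson 95% intervals. Foxp3 is near 0 in CD8 and B cells, and the blue bars of Foxp3, Ikzf2, Lrrc32 and Izumo1r are highest in Mki67-positive CD4 cells, where Ikzf2 reaches 554 CPM.

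Promoter sequences are shown for Foxp3 and Izumo1r because these genes were often detected in the same cells. RefSeq (GRCm38.p6) listed entries for 3 of the 5 genes, and Ikzf2 and Lrrc32 had none in the table used. Each sequence is the 250 bases before a listed start, 5′ to 3′ on the gene's strand, and Foxp3 has 2 starts at chrX:7579426-7579675 and chrX:7580233-7580482 (plus), Izumo1r 1 at chr9:14903768-14904017 (minus). Capitals mark matches on either strand to TGTTTAC (forkhead), TGGGAA (Ikaros family), TTCNNNGAA (STAT) or TGTGGT (Runx), and no 2 matches overlapped.
Foxp3, first start: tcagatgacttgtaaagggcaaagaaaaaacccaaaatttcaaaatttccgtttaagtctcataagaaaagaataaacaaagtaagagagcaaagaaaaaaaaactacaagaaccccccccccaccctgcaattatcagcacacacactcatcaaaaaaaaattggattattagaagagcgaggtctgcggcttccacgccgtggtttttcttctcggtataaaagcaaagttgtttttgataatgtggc
Foxp3, second start: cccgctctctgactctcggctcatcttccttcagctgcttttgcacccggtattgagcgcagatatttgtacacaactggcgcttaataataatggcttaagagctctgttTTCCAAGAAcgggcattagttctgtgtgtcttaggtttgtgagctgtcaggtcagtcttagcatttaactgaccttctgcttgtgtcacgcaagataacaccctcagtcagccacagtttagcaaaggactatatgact
Izumo1r: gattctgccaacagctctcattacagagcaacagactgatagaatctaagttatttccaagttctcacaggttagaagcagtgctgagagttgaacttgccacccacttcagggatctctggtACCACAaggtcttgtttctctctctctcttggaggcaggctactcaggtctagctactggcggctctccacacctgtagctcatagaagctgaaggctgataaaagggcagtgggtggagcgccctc
The match to the STAT motif began 139 bases before the second Foxp3 start, and the Runx match, read on the other strand, 127 bases before the Izumo1r start. Of 32851 promoters of the same length, 7.02% held the STAT motif, 14.0% the Runx motif, 3.17% the forkhead motif and 21.6% the Ikaros family motif. No window held the forkhead or the Ikaros family motif. A match describes these letters and not a bound site.

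Per cell and before thinning, Ikzf2, Izumo1r, Lrrc32 and Ebi3 were each detected more often in Foxp3-positive CD4 cells than in the rest of the CD4 gate. Ikzf2 was detected in 24 of 28 Foxp3-positive cells (85.7%, exact interval 67.3 to 96.0) against 215 of 802 Foxp3-negative cells (26.8%) in the C435A library. In the WT library the counts were 40 of 49 (81.6%, 68.0 to 91.2) against 82 of 682. The intervals of positive and negative cells did not overlap in either library. Foxp3-positive cells were deeper, with medians of 4352 against 3512.5 and 4053 against 2550.5 UMIs. On the CPM scale, which does not grow with depth, Ikzf2 was 1224 against 155 CPM and 1254 against 116 CPM, or 7.91-fold and 10.8-fold higher in Foxp3-positive cells. After thinning every cell to 1000 UMIs, 5 of 12 (41.7%, 15.2 to 72.3) and 15 of 22 (68.2%, 45.1 to 86.1) Foxp3-positive cells had an Ikzf2 UMI, against 12.7% and 7.51% of the others.

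Izumo1r, the other surface protein gene besides Lrrc32, was detected in 19 of 28 and 32 of 49 Foxp3-positive cells, against 19.7% and 22.6% of Foxp3-negative cells. Its level was 479 against 94.0 CPM and 588 against 142 CPM. Lrrc32 was detected in 6 of 28 and 9 of 49 Foxp3-positive cells, against 0.125% and 0.733% of the others, and 80.0% and 61.1% of its UMIs in the CD4 gate came from Foxp3-positive cells. Among the 4 genes set beside Foxp3, that part was largest for Lrrc32 in both libraries, though it rests on 10 and 18 UMIs. Ebi3 was detected in 5 of 28 and 3 of 49 Foxp3-positive cells, against 2.12% and 0.733% of the others. These shares were not thinned. After thinning, only 3 and 2 CD4 cells had an Ebi3 UMI, and 3 and 2 a Lrrc32 UMI, too few to compare.

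Read in the other direction, a smaller share of Ikzf2-positive cells carried Foxp3 in the C435A library. Of CD4 cells with an Ikzf2 UMI, 24 of 239 (10.0%, 6.54 to 14.6) also had a Foxp3 UMI there, against 40 of 122 (32.8%, 24.6 to 41.9) in the WT library. After thinning the counts were 5 of 108 (4.63%) and 15 of 68 (22.1%). Foxp3-positive cells gave 22.5% and 58.7% of the Ikzf2 UMIs of the CD4 gate. For Izumo1r the corresponding shares of cells were 19 of 177 (10.7%, 6.59 to 16.3) and 32 of 186 (17.2%, 12.1 to 23.4), whose intervals overlapped. In the C435A library 132 CD4 cells had Ikzf2 as the only detected member, 82 had Izumo1r alone and 73 had both without the other 3. In the WT library these counts were 39, 112 and 36. They were taken without thinning, at median depths of 3528.5 and 2593 UMIs in the CD4 gates.

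At least 3 of the 5 genes were detected in 23 CD4 cells (2.77%) of the C435A library and 33 (4.51%) of the WT library, and all 5 in 1 cell of each. The most frequent combination of 3 or more was Foxp3 with Ikzf2 and Izumo1r, in 12 and 19 cells. Foxp3 was the only detected member in 1 and 2 cells. No member was detected in 497 (59.9%) and 485 (66.3%) CD4 cells, so most CD4 cells in both libraries carried none of these transcripts at this depth. After thinning, no member was detected in 80.6% and 80.2% of CD4 cells, and at least 3 members in 3 and 5 cells.

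**Figure D2:**
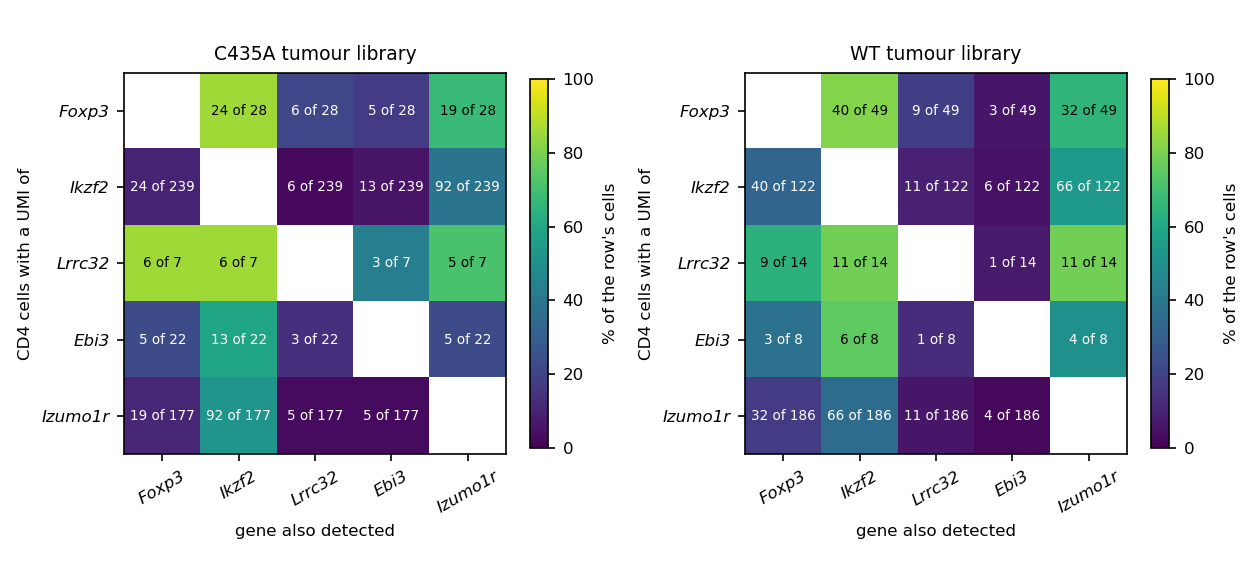
Co-detection in CD4 cells, each square giving how many cells with a UMI of the row's gene also had a UMI of the column's gene, coloured by percent from 0 to 100, for the C435A library (left) and the WT library (right). The Foxp3 rows show Ikzf2 in 24 of 28 and 40 of 49 cells, and the Ikzf2 rows show Foxp3 in 24 of 239 and 40 of 122 cells.

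The Foxp3-positive cells also carried genes known from regulatory T cells. Lists of such genes were described by counts of genes with at least 20 UMIs that lay at least 1.5-fold apart between Foxp3-positive and Foxp3-negative CD4 cells. Of the surface receptor list, 15 of 18 measured genes were higher in the C435A library and 16 of 16 in the WT library, where 18.3% and 19.7% of all genes tested were higher. The list's median log2 ratio was 2.01 and 2.09, against 0.00 and 0.04 over all genes. Ctla4, an inhibitory receptor that binds CD80 and CD86, stood at 616 against 122 CPM and 331 against 50.2 CPM. Icos, a costimulatory receptor, stood at 395 against 237 CPM and 260 against 127 CPM. Tnfrsf18, which encodes GITR, had log2 ratios of 1.38 and 2.00. The receptors Tnfrsf4 (OX40) and Il2ra (CD25, a chain of the IL-2 receptor) had log2 ratios of 2.84 and 3.85 in the C435A library and of 2.78 and 2.83 in the WT library. Il2rb, another IL-2 receptor chain with more UMIs than these, had log2 ratios of 0.43 and 2.20.

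Of the list of transcription factors and intracellular genes, 8 of 13 and 9 of 13 were higher and 1 in each library was lower. Capg, an actin-capping protein, stood at 449 against 78.7 CPM and 449 against 90.5 CPM, and Maf at 730 against 357 CPM and 296 against 155 CPM. Ly6a, the gene of this list with the most UMIs, had log2 ratios of 0.21 (-0.08 to 0.48) and 0.30 (0.03 to 0.56). Ikzf4, which encodes the Ikaros family protein Eos and was named here after its values were seen, had log2 ratios of 2.50 and 3.65, and Ikzf1, which encodes Ikaros itself, -0.73 and -0.67. Of the 5 Ikaros family genes, 3 were higher and 1 was lower in each library, and this count includes Ikzf2.

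Secreted factors gave 2 of 4 and 3 of 4 measured genes higher. Gzmb, a granule protease, had log2 ratios of 0.45 (-0.03 to 0.89) and 0.66 (-1.08 to 2.08), and Tgfb1, the cytokine that GARP presents, 0.07 (-0.85 to 0.87) and 0.41 (-0.09 to 0.89). Fgl2, a secreted protein with suppressive activity, had log2 ratios of 2.28 and 3.31. Il10, an inhibitory cytokine, gave 0 UMIs in Foxp3-positive and 13 in Foxp3-negative cells of the C435A library, and 1 and 3 in those of the WT library. Partners and drivers of Foxp3, among them Runx1, Cbfb and Stat5b, gave 1 of 10 genes higher and 1 lower in each library. The TGF-beta genes around Lrrc32 gave 2 higher and 1 lower of 6 measured in the C435A library, and 0 higher and 1 lower of 6 in the WT library.

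Genes known to be low in regulatory T cells lay the other way. Of this list, 6 of 10 measured genes were lower in Foxp3-positive cells in the C435A library and 9 of 9 in the WT library, where 18.9% and 19.2% of all genes tested were lower. Lef1 and Tcf7, transcription factors of naive T cells, had log2 ratios of -0.85 and -1.56 in the C435A library and of -1.25 in the WT library for each. Il7r, the IL-7 receptor chain, had log2 ratios of -0.33 (-1.01 to 0.28) and -1.39 (-1.85 to -0.97). Satb1, a chromatin organiser, had log2 ratios of -1.33 (-2.34 to -0.49) and -1.97 (-2.46 to -1.51). With CD4 cells defined by at least 2 Cd4 UMIs, 3 of these genes were lower in the C435A library.

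**Figure D3:**
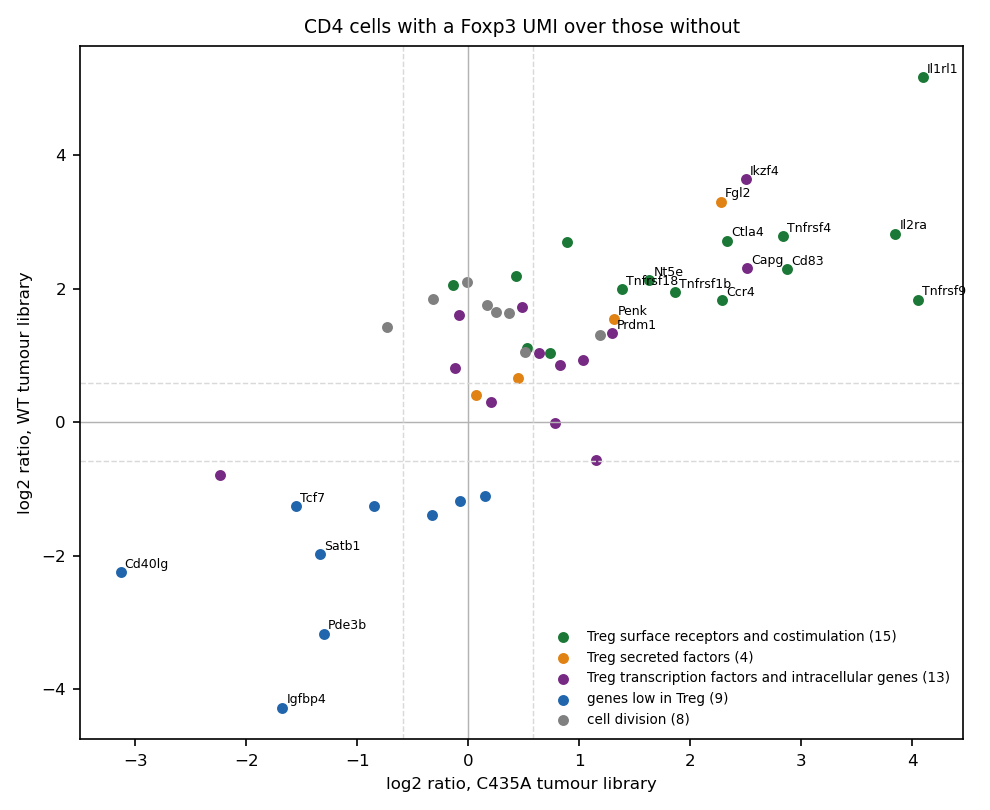
Log2 ratio of Foxp3-positive over Foxp3-negative CD4 cells in the C435A library (horizontal) against the WT library (vertical), 1 point per gene measured in both, coloured by list, with dashed lines at 1.5-fold. The surface receptors lie mostly at the upper right and the genes low in regulatory T cells mostly at the lower left, and the 8 cell division genes lie above 1 on the vertical axis, while on the horizontal axis 1 of them, Ube2c at 1.18, does.

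Markers of other lineages in the cells counted as Foxp3-positive differed by list and library. Their summed markers of NK cells, mature dendritic cells and gamma delta T cells stood at 0 UMIs in the C435A library. Foxp3-negative cells there held 15.3, 89.6 and 8.35 CPM. In the 28 Foxp3-positive cells 3 UMIs made 22.8 CPM, so a 0 allows a level up to that. The values of 15.3 and 8.35 CPM lie below this bound, so for NK and gamma delta markers no difference is read. In the WT library these markers stood at 1, 3 and 4 UMIs, or 3.56, 10.7 and 14.25 CPM, against 17.8, 154 and 17.8 CPM. Neutrophil markers stood at 0 and 278 UMIs, with 1 cell of the WT library holding at least 2 of them. On the CPM scale these were 0, which allows up to 22.8 CPM, and 990 CPM, against 6.12 and 5.16 CPM. With cells of at least 2 neutrophil marker UMIs left out of the gate, the surface list still gave 15 and 16 genes higher. Markers of plasmacytoid dendritic cells stood at 98.9 against 34.8 CPM in the C435A library, with 3 of the 4 genes at 0, and at 3.56 against 15.5 CPM in the WT library. Markers of plasma cells stood at 114 and 74.8 CPM, against 110 and 90.5 CPM in Foxp3-negative cells.

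The genes most like each member were ranked by the lower bound of their log2 ratio between member-positive and member-negative CD4 cells, taking for each gene the smaller of its values in the 2 libraries. For Foxp3, among 2304 genes with at least 10 UMIs in the positive cells of each library, the first 10 were Il1rl1, Ikzf2, Tnfrsf4, Il2ra, Capg, Ctla4, Tiam1, Izumo1r, Cd83 and Ighm. Il1rl1 encodes ST2, the IL-33 receptor, and stood at 114 against 6.68 CPM and 67.7 against 1.88 CPM. Of the other members, Ikzf2 and Izumo1r were in this list, while Lrrc32 and Ebi3 had too few UMIs to be ranked. Ighm, a B cell transcript, stood at 905 against 243 CPM and 848 against 275 CPM. B cell markers in the same cells stood at 22.8 against 20.3 CPM and 32.1 against 25.3 CPM, with 2 of the 3 markers at 0 in the C435A library and 1 in the WT library.

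For Lrrc32 the list opened with Ikzf2, Tnfrsf4 and Izumo1r, and for Ikzf2 with Foxp3, Gm28112, Il2ra, Cxcr5 and Tnfrsf4. Gm28112 lies within Ikzf2 on the same strand (chromosome 1, 69660187 to 69662061), so reads of the 2 genes may not be told apart. For Izumo1r the first 5 were Penk, Gpm6b, Bcl2l14, Tnfrsf4 and Tox2. Bcl2l14 also came first for Ebi3, with 25 and 24 UMIs in Ebi3-positive and 22 and 25 in Izumo1r-positive CD4 cells. It had 3 and 4 UMIs in Ebi3-negative and 6 and 3 in Izumo1r-negative CD4 cells. Most of its UMIs thus came from cells with both genes, which lie among only 22 and 8 Ebi3-positive CD4 cells. Mature dendritic cell markers stood at 27.9 against 104 CPM in Izumo1r-positive and Izumo1r-negative cells of the C435A library. In the WT library they stood at 325 against 41.3 CPM. Neutrophil markers there stood at 343 against 6.26 CPM, with 1 positive cell holding at least 2 such UMIs. The part of these markers in the Izumo1r list was not tested. Among CD4 cells without a Foxp3 UMI, a split chosen after the data were seen, the genes most like Ikzf2 began with Cxcr5, Gpm6b and Tox2. Cxcr5, the chemokine receptor of follicular helper T cells, stood at 44.1 against 7.52 CPM in the C435A library and 59.3 against 5.48 CPM in the WT library.

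For Ebi3 the first 5 were Bcl2l14, Fscn1, Zmynd15, Tm4sf5 and Bcl2a1a, and Fscn1 is one of the 4 mature dendritic cell markers. The 22 and 8 Ebi3-positive CD4 cells held 221 and 107 UMIs of these markers, or 1191 and 1683 CPM, against 28.5 and 95.4 CPM in Ebi3-negative cells, with none of the 4 markers at 0. Their median depth was 6338.5 and 4013.5 UMIs, against 3463.5 and 2589 UMIs. They included 4 and 1 cells with at least 2 such UMIs. Conventional dendritic cell markers stood at 205 CPM in Ebi3-positive cells of the C435A library, from 38 UMIs with 5 cells holding at least 2, against 1.41 CPM in Ebi3-negative cells, and 1 of the 5 markers was at 0. Those of the WT library held 15.7 CPM, from 1 UMI, against 7.24 CPM. Without cells of at least 2 mature dendritic cell marker UMIs, a setting chosen after the data were seen, 76 of 79 results could be recomputed. All 76 stayed within their counting interval or the limit set for counts. The Ebi3 ranking was not among the 79 results, so the part of these markers in it was not tested. Foxp3-positive cells held 0 and 3 UMIs of the mature dendritic cell markers.

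Between the libraries, 3 of the 5 members (Foxp3, Lrrc32 and Izumo1r) were at least 1.5-fold lower in CD4 cells of the C435A library and none was higher, where 13.5% of all genes tested were lower and 14.5% higher. The log2 ratio of the C435A over the WT library was -1.43 (-1.92 to -0.95) for Foxp3. It was -1.48 (-2.75 to -0.28) for Lrrc32, -0.85 (-1.05 to -0.65) for Izumo1r and -0.37 (-0.53 to -0.21) for Ikzf2. For Ebi3 it was 0.52 (-0.43 to 1.54), an interval that includes 0. With CD4 cells defined by at least 2 Cd4 UMIs, the log2 ratio was -2.79 for Foxp3, -0.89 for Ikzf2 and -1.19 for Izumo1r. In such sums, fewer cells with a transcript and less of it per cell cannot be told apart, so shares of cells are given next. Over all T cells, 4 of 5 members were at least 1.5-fold lower in the C435A library, where 21.0% of all genes tested were lower and 12.9% higher. Mki67-positive cells held 53.4% and 13.4% of the T cell UMIs. In Mki67-negative T cells the log2 ratio was -0.59 for Foxp3, -0.13 for Ikzf2, against -0.93 over all T cells, and -0.36 for Izumo1r, against -1.16, so Ikzf2 and Izumo1r were no longer 1.5-fold apart. For Lrrc32 it was -0.82 (-1.96 to 0.23), an interval that includes 0.

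The share of CD4 cells with Foxp3 was lower in the C435A library over the whole gate, but not beyond counting error in its Mki67-negative cells. A Foxp3 UMI was found in 3.37% of CD4 cells in the C435A library and in 6.70% in the WT library. With each cell thinned to 1000 UMIs, which left out 6 and 3 shallower cells, the shares were 1.46% and 3.02%. They rest on 12 of 824 and 22 of 728 cells, a difference of -1.57 percentage points (-3.20 to -0.0875). The upper bound lies close to 0, and the interval leaves out the spread of the thinning, which was a single random draw. In Mki67-negative CD4 cells the difference was -1.06 points (-2.68 to 0.51) after thinning and -1.80 points (-4.03 to 0.41) before it, intervals that include 0. Within Foxp3-positive cells the log2 ratios of the C435A over the WT library were -0.03 (-0.31 to 0.24) for Ikzf2 and -0.30 (-0.74 to 0.13) for Izumo1r. Neither gene was 1.5-fold apart there, against 14.2% of all genes tested higher and 15.1% lower.

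In Foxp3-negative CD4 cells the members went in different directions. Ikzf2 stood at 155 and 116 CPM, a log2 ratio of 0.41 (0.19 to 0.63), so it was higher in the C435A library. Izumo1r stood at 94.0 and 142 CPM, a log2 ratio of -0.60 (-0.82 to -0.37). Ebi3 stood at 6.96 and 4.22 CPM, a log2 ratio of 0.72 (-0.43 to 2.00). Of these 3 measured genes, 1 was at least 1.5-fold higher and 1 at least 1.5-fold lower, where 16.2% of all genes tested were higher and 14.1% lower. The share of CD4 cells with an Ikzf2 UMI was 13.1% and 9.34% after thinning and 28.8% and 16.7% before it. These shares ran against the CPM of the whole gate, so no order between the libraries is read from them. Izumo1r after thinning was found in 8.50% and 13.0% of CD4 cells, a difference of -4.55 points (-7.70 to -1.47).

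In CD8 cells Ikzf2 and Izumo1r were lower in the C435A library. The log2 ratio was -1.22 (-1.39 to -1.05) for Ikzf2 and -2.07 (-2.38 to -1.77) for Izumo1r, where 20.9% of all genes tested were at least 1.5-fold lower. In Mki67-positive CD8 cells these log2 ratios were -3.19 (-3.53 to -2.84) and -2.54 (-3.47 to -1.53), and in Mki67-negative CD8 cells -0.38 (-0.58 to -0.17) and -1.26 (-1.60 to -0.92). After thinning, 3.18% and 4.91% of CD8 cells had an Ikzf2 UMI and 0.985% and 2.60% an Izumo1r UMI. In T cells with neither lineage the log2 ratio was -0.33 (-0.92 to 0.25) for Foxp3 and -0.16 (-0.44 to 0.11) for Izumo1r, both with intervals that include 0, and -0.31 (-0.49 to -0.13) for Ikzf2. Without cells of at least 5 melanoma marker UMIs, the interval of Izumo1r there no longer included 0, at -0.30 (-0.57 to -0.02). Lrrc32 held 1 and 15 UMIs there, a log2 ratio of -3.37 (-8.76 to -0.67).

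**Figure D4:**
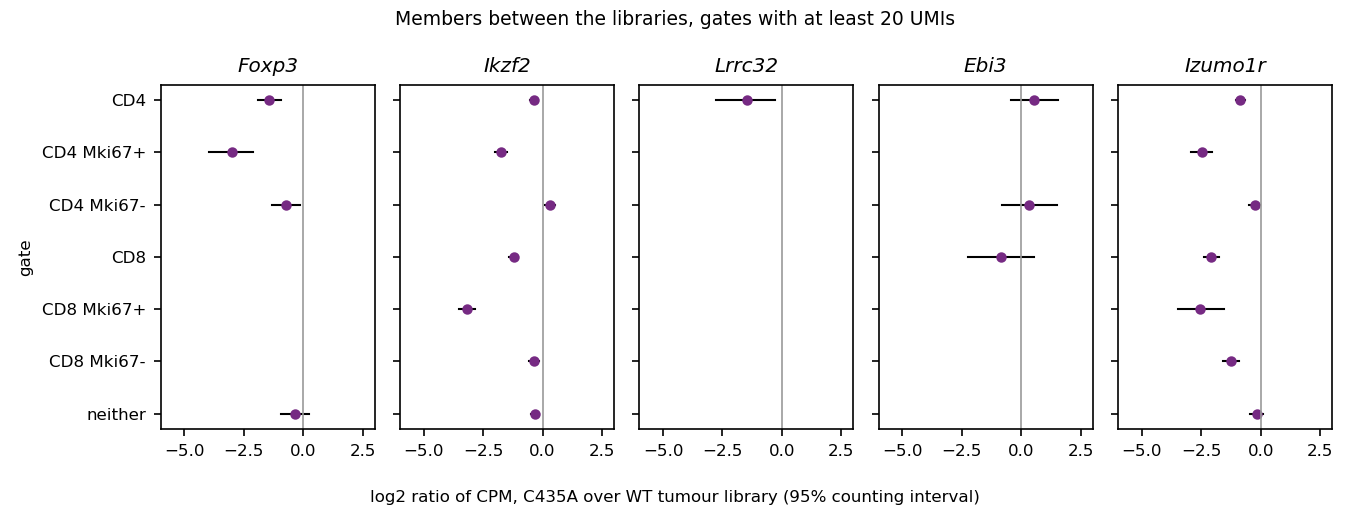
Log2 ratio of the C435A over the WT library for each gene (panels) and gate (rows), with points for the ratio and lines for the 95% counting interval, drawn where a gate held at least 20 UMIs of the gene. Foxp3, Ikzf2 and Izumo1r lie farthest to the left in Mki67-positive cells, and the ratio of Ikzf2 in Mki67-negative CD4 cells lies right of 0 at 0.30.

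The log2 ratios were farther from 0 in Mki67-positive than in Mki67-negative CD4 cells, a contrast that could not be tested. In Mki67-positive CD4 cells, 197 and 47 in number, Foxp3 stood at 9.79 CPM (5.48 to 16.1) and 79.1 CPM (56.0 to 109), Ikzf2 at 163 and 554 CPM, and Izumo1r at 42.4 and 237 CPM. The log2 ratios were -3.01 (-3.98 to -2.12), -1.76 (-2.02 to -1.51) and -2.48 (-2.95 to -2.03), so all 3 measured members were at least 1.5-fold lower, where 15.5% of all genes tested were. Lrrc32 had 1 and 12 UMIs. A single cell gave 46.7% of the 15 Foxp3 UMIs of the C435A library in this gate, and another 24.6% of the Izumo1r UMIs of the WT library. In the 633 and 684 Mki67-negative CD4 cells the log2 ratio was -0.73 (-1.33 to -0.15) for Foxp3, 0.30 (0.09 to 0.51) for Ikzf2 and -0.26 (-0.48 to -0.04) for Izumo1r. There 1 of 4 measured members, Foxp3, was at least 1.5-fold lower, where 10.2% of all genes tested were. Weighting each CD4 cell alike gave log2 ratios of -0.75 for Foxp3, 0.27 for Ikzf2 and -0.34 for Izumo1r, so the direction of Ikzf2 over the CD4 gate turned with that weighting and without the Mki67-positive cells.

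On the CPM scale, Foxp3, Ikzf2 and Izumo1r were lower in Mki67-positive than in Mki67-negative CD4 cells of the C435A library and higher in those of the WT library. For Foxp3 and Ikzf2 in the C435A library, the shares of cells did not show this. In CD4 cells of the C435A library, Foxp3 stood at 9.79 CPM in Mki67-positive and 19.6 CPM in Mki67-negative cells, a log2 ratio of -1.003 (-1.96 to -0.13). In the WT library it stood at 79.1 and 32.6 CPM, a log2 ratio of 1.28 (0.66 to 1.88). For Ikzf2 the log2 ratios were -0.38 (-0.61 to -0.16) and 1.68 (1.44 to 1.92), and for Izumo1r -1.85 (-2.26 to -1.47) and 0.37 (0.06 to 0.68). After thinning, Foxp3 was found in 1.52% of Mki67-positive and 1.44% of Mki67-negative CD4 cells of the C435A library, and Ikzf2 in 13.2% and 13.1%. Before thinning these shares were 3.55% and 3.32% for Foxp3 and 39.1% and 25.6% for Ikzf2. In the WT library the thinned shares were 10.6% and 2.50% for Foxp3 and 38.3% and 7.34% for Ikzf2. For Izumo1r the thinned shares were 1.52% and 10.7% in the C435A library and 17.0% and 12.8% in the WT library. Lrrc32 had 1 and 9 UMIs in Mki67-positive and Mki67-negative cells of the C435A library and 12 and 6 in those of the WT library. Of all genes tested, 15.3% were at least 1.5-fold higher and 19.4% lower in Mki67-positive cells of the C435A library, and 26.4% and 21.7% in the WT library.

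Of the Foxp3-positive CD4 cells, 7 of 28 (25.0%, 10.7 to 44.9) and 14 of 49 (28.6%, 16.6 to 43.3) had a Mki67 UMI, with overlapping intervals. Over the whole CD4 gate these shares were 23.7% and 6.43%. The shares were not thinned. Foxp3-positive cells were deeper, with medians of 4352 and 4053 UMIs against 3528.5 and 2593 UMIs over the CD4 gate. Cell division genes gave a similar picture, with 1 of 8 higher in Foxp3-positive than in Foxp3-negative cells in the C435A library and 8 of 8 in the WT library, where 18.3% and 19.7% of all genes tested were. Top2a, a topoisomerase of dividing cells, stood at 449 against 400 CPM in the C435A library and 381 against 112 CPM in the WT library. Ube2c, a ubiquitin-conjugating enzyme of mitosis, had log2 ratios of 1.18 and 1.30.

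In CD8 cells, Ikzf2 went the same way. It stood at 22.2 against 57.6 CPM in Mki67-positive and Mki67-negative cells of the C435A library, a log2 ratio of -1.38 (-1.64 to -1.11), and at 203 against 74.9 CPM in the WT library, a log2 ratio of 1.44 (1.13 to 1.73). The WT library had only 70 Mki67-positive CD8 cells, of which 16 carried Ikzf2, and 20.7% of these Ikzf2 UMIs came from 1 cell. Izumo1r in Mki67-positive over Mki67-negative CD8 cells had log2 ratios of -2.05 (-2.65 to -1.48) and, with an interval that includes 0, -0.76 (-1.65 to 0.01). Melanoma cell markers stood at 399 CPM in Mki67-positive CD8 cells of the C435A library and at 3644 CPM in those of the WT library, against 402 and 381 CPM over all CD8 cells, and 1 cell gave 65.9% of them in the WT library. Without cells of at least 5 melanoma marker UMIs, the log2 ratios of Ikzf2 were -1.39 (-1.67 to -1.13) and 1.65 (1.34 to 1.95). After thinning, Ikzf2 was found in 1.13% and 4.32% of Mki67-positive and Mki67-negative CD8 cells of the C435A library and in 12.9% and 4.62% of those of the WT library. Of all genes tested, 16.4% were higher and 22.5% lower in Mki67-positive CD8 cells of the C435A library, and 27.8% and 19.2% in the WT library.

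Melanoma cell markers (Pmel, Mlana, Dct and Tyrp1) moved with the Mki67-positive CD4 gate, at 19.6 CPM in the C435A library and 2878 CPM in the WT library, with none of the 4 at 0. In the WT library 1 cell gave 97.9% of these UMIs and 96095 of the 480468 UMIs of that gate, and it held no Foxp3 UMI and 1 of Ikzf2. Without cells of at least 5 melanoma marker UMIs, the log2 ratio of Mki67-positive over Mki67-negative CD4 cells in the WT library was 1.60 for Foxp3, 1.99 for Ikzf2 and 0.72 for Izumo1r. With a gate of at least 2 Mki67 UMIs, it was 0.97 for Foxp3 and 1.34 for Ikzf2, and in the C435A library -0.79 (-1.77 to 0.10), an interval that includes 0, and -0.41. For Izumo1r in the WT library it was 0.30 (-0.04 to 0.63), which also includes 0. Mature dendritic cell markers stood at 136 CPM in Mki67-positive CD4 cells of the C435A library and 10.4 CPM in those of the WT library, with 2 of the 4 at 0 in the latter. Without cells of at least 2 such UMIs, the log2 ratio of the C435A over the WT library in Mki67-positive CD4 cells was -2.96 for Foxp3 and -1.75 for Ikzf2. Plasmacytoid dendritic cell markers stood there at 63.9 and 0 CPM, and their part was not tested. All 3 settings were chosen after the data were seen.

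**Figure D5:**
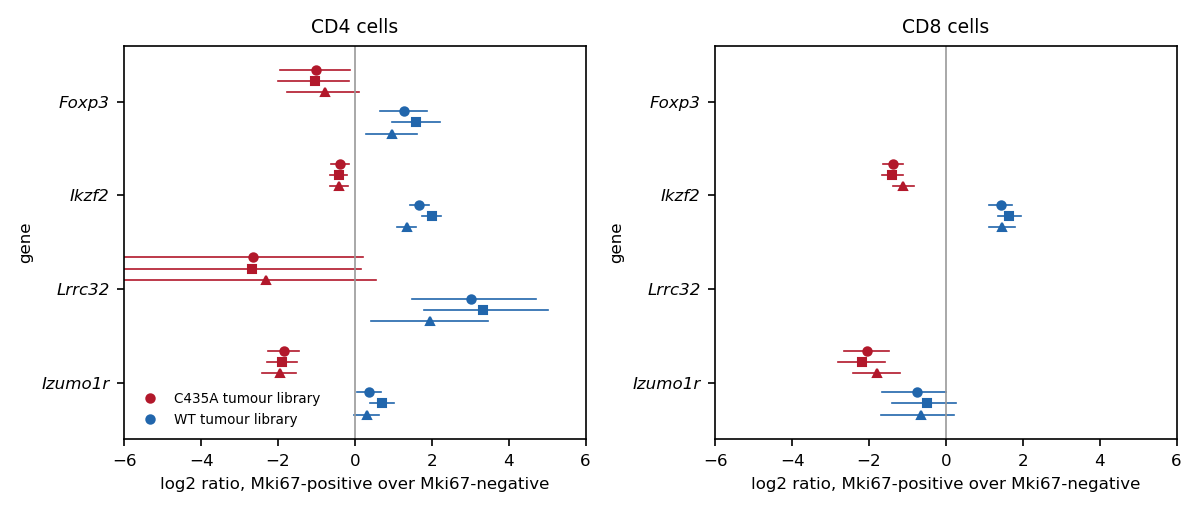
Log2 ratio of Mki67-positive over Mki67-negative cells (horizontal) for 4 genes in CD4 cells (left) and CD8 cells (right), with red for the C435A library, blue for the WT library and lines for 95% counting intervals cut at -6. Circles are the values as reported, squares leave out cells with melanoma markers and triangles need at least 2 Mki67 UMIs, and the red and blue values of Foxp3 and Ikzf2 in CD4 cells lie on opposite sides of 0 in all 3.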

How the data were processed

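The files were gene-by-cell UMI count matrices, raw whole-number counts made with Cell Ranger 7.2.0, per the file headers, on genome build GRCm38, per the submitters' processing notes. The matrices held 59615672 and 54934397 UMIs. With Python 3.11.15, numpy 2.4.6 and scipy 1.17.1, cells with at least 200 genes, 500 UMIs and under 20% mitochondrial UMIs were kept, and the highest Scrublet scores (scanpy 1.11.5) were removed as doublets at 0.8% per 1000 barcodes. T cells had under 3 UMIs of the B cell and of the macrophage markers. UMIs were summed per gate, with exact Poisson, conditional binomial and Clopper-Pearson 95% intervals and Newcombe intervals for differences of shares. Genes were counted at 20 or more UMIs and 1.5-fold, with 0 set to a floor of 3. Named genes were the 5 members, the genes with the most UMIs of each list, and those most like a member, without receptor and immunoglobulin segments. Members and lists were chosen with earlier results of these data known. Thinning was a single random draw of UMIs per cell. The interval code was tested on simulated independent Poisson counts, which hold no spread between cells, so coverage in the real data was not tested. Alternatives changed gates, doublets, scaling, cell weighting, thinning and count minimums.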

Additional observations from a re-analysis of the deposited data

Results flagged for a closer look

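Mki67-positive and Mki67-negative cells of a lineage were contrasted within each library, and 4 contrasts had opposite signs in the 2 libraries with intervals that excluded 0. In CD4 cells the log2 ratio was -1.003 for Foxp3 in the C435A library and 1.28 in the WT library. For Ikzf2 it was -0.38 and 1.68, and for Izumo1r -1.85 and 0.37. In CD8 cells it was -1.38 and 1.44 for Ikzf2. These values are ratios of summed CPM. With every cell thinned to 1000 UMIs, the shares of Mki67-positive and Mki67-negative CD4 cells of the C435A library were 1.52% and 1.44% for Foxp3 and 13.2% and 13.1% for Ikzf2, so the lower values there were not seen in shares. With at least 2 Mki67 UMIs, the intervals of Foxp3 in the C435A library (-1.77 to 0.10) and of Izumo1r in the WT library (-0.04 to 0.63) included 0. With 1 library per tumour genotype, the difference between the libraries was not tested.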

How the results depend on the processing

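Of 867 recomputed values of 79 results, 793 moved by less than their counting interval or the limit set for counts, 72 moved further and 2 reversed. Leaving out cells with melanoma, mature dendritic or neutrophil markers and asking for at least 2 Mki67 UMIs were chosen after seeing the data. The log2 ratio of the C435A over the WT library in CD4 cells was -2.79 for Foxp3, -0.89 for Ikzf2 and -1.19 for Izumo1r with at least 2 lineage UMIs. With each cell weighted alike it was -0.75, 0.27 and -0.34, and without Mki67-positive cells -0.73, 0.30 and -0.26, so Ikzf2 reversed in both. For Mki67-positive over Mki67-negative CD4 cells, at least 2 lineage UMIs gave -2.29 for Foxp3 and -0.65 for Ikzf2 in the C435A library. For Ikzf2 in the WT library that contrast was 1.98 with at least 3 T cell UMIs, 1.38 with no limit on B cell and macrophage markers, 1.99 without melanoma marker cells and 1.34 with at least 2 Mki67 UMIs. Genes at least 1.5-fold lower in CD4 cells of the C435A library numbered 1430, and 792 with at least 50 UMIs per gene, which tests fewer genes. Genes low in regulatory T cells that were lower in Foxp3-positive cells of the C435A library numbered 6, and 3 with at least 2 lineage UMIs. Thinning put the share of Foxp3-positive cells with Ikzf2 there at 41.7%, and without thinning the Foxp3 share differed by -3.33 points. The cause was not tested. No paired analysis was possible because each group is 1 library.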
